A study of Mus musculus with 8 samples.

Results

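Antisense features were examined in RNA-seq of the mouse hippocampus: rows of the deposited table with no gene symbol whose interval overlaps a named gene on the opposite strand and none on the same strand. The rule kept rows with a mean of at least 10 normalised reads over the 8 libraries and left out the mitochondrial chromosome. It found 1467 features of 56575 in the table (2.59%), or 18.2% of the 8059 unnamed features at that level off the mitochondrial chromosome. The features were thus chosen by their mean level over all libraries and by position, not by the difference between genotypes. Just inside the threshold lay GSMG0012709, opposite Vwa8, with a mean of 10.04, and just outside it lay GSMG0017401, opposite Zfp414 and Pram1, with a mean of 9.97.

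The libraries came from C57BL/6 mice aged 8 weeks, 4 labelled wild type (WT) and 4 labelled Slm2KO, a knockout of SLM2, the splicing regulator encoded by Khdrbs3. The labels give no sex, do not describe the deletion, and do not say whether each library is a single animal, so the p-values below cover only variation among these libraries, which may be technical. Total RNA was made into libraries with an Illumina TruSeq RNA kit that does not mark strand. The strand of a feature is therefore that of the authors' feature set, and reads from a feature and from the gene across from it cannot be told apart by strand. Fewer cells of a type and less RNA per cell cannot be told apart either.

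Antisense transcripts are RNAs made from the strand opposite a gene. Some start near the promoter of their partner and run away from it, some are the long ends of neighbouring genes that converge on it, and some lie wholly inside it. In neurons the best known is the transcript opposite Ube3a, which silences the paternal copy of that ubiquitin ligase gene. The transcript opposite Bace1, the β-secretase of amyloid processing, is another. Other features in such a class can be copies of genes from elsewhere in the genome.

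Summed over the rows of the deposited table, the libraries held 104020058 to 125985224 recovered reads. Khdrbs3 had 22051 ± 2387 normalised reads in WT and 29749 ± 3040 in the libraries labelled Slm2KO (SD, n = 4 each), so its level does not show the labelled loss. Its row covers the whole gene and cannot show the loss of an exon. Khdrbs2, of the same gene family, had 1096 ± 98.4 in WT and 2481 ± 290 in the libraries labelled Slm2KO (SD, n = 4 each). Its limma adjusted p was 0.0076, and the groups did not overlap. Markers of 8 cell types were all detected. The summed choroid plexus markers ran from 342021 to 2448820 in WT and from 521325 to 3108680 in the libraries labelled Slm2KO, a wide range within each group.

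The sequences that bear most on what these features are come from the GENCODE vM21 transcripts (GRCm38, which is mm10). The first set belongs to the highest antisense values, which were found opposite Lmbrd1, a lysosomal cobalamin transporter gene on chromosome 1. There GENCODE places pseudogenes whose sequence is that of mitochondrial genes. Each pair below gives the first bases of the nuclear copy and of the mitochondrial gene, in lower case because no base differs.
Gm10925 (chr1:24614592-24614651, minus strand): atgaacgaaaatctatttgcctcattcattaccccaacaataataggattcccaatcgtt
mt-Atp6 (chrM:7927-7986, plus strand): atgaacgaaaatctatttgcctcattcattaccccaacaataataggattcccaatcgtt
Gm28661 (chr1:24615506-24615565, minus strand): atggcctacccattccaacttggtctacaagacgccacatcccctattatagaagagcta
mt-Co2 (chrM:7013-7072, plus strand): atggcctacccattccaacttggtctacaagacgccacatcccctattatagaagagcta

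The second set gives the last 60 bases of 4 antisense features whose end lies within an exon of a GENCODE transcript, named beside each. Whether that transcript itself ends there was not checked. They are shown because a poly(A) signal, the hexamer that directs cleavage and polyadenylation, stands near the end of each on the strand of the feature. Capitals mark that hexamer. GSMG0043564 lies opposite Bace1, GSMG0036000 opposite Ube3a, GSMG0032582 opposite Grin2b (an NMDA receptor subunit) and GSMG0010344 opposite Inhba (the activin βA subunit).
GSMG0043564 (Gm16536, chr9:45856770-45856829, minus strand): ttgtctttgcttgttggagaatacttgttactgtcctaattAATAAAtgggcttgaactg
GSMG0036000 (9330162G02Rik, chr7:59227348-59227407, minus strand): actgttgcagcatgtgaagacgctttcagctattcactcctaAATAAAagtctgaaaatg
GSMG0032582 (Gm26653, chr6:136175605-136175664, plus strand): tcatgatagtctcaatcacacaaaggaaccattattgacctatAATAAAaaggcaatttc
GSMG0010344 (B230303A05Rik, chr13:15944764-15944823, minus strand): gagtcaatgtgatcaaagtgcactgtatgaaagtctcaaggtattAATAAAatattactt

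The third set is the microRNAs encoded within antisense intervals, from RefSeq, with the seed (bases 2 to 8) in capitals. On their own strand 4 features hold a microRNA hairpin, and 11 have one on the strand of the gene. GSMG0022600, opposite Odf2, holds Mir219a-2, whose product is enriched in oligodendrocytes. GSMG0002666, opposite A330023F24Rik, spans Mir29b-2 and Mir29c, which lie on the gene's strand, and miR-29b-3p and miR-29c-3p have the same seed.
mmu-miR-219a-5p (chr2:29845689-29845709, minus strand): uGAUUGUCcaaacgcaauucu
mmu-miR-29b-3p (chr1:195037091-195037113, plus strand): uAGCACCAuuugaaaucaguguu
mmu-miR-29c-3p (chr1:195037600-195037621, plus strand): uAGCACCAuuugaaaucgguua

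Partly overlapping and nested arrangements were both common. Of the 1467 features, 709 lay inside the gene they oppose, 519 overlapped its start (head to head), 211 overlapped its end (tail to tail) and 28 enclosed the gene. They opposed 1319 different genes, 110 of which had more than 1 feature, and Ube3a had the most, with 9. At least 1 coding exon of the opposite strand was overlapped by 825 features, only untranslated or noncoding exons by 399, and no exon by 243. The features inside a gene lay toward its end: 151 (21.3%) had their middle in the last 10% of the gene and 39 (5.50%) in the first 10%. Their lengths ran from 21 to 530752 bases with a median of 2427.

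GENCODE vM21, which is newer than the authors' feature set, has a gene on the feature's own strand for about as many as it lacks one for. It places no gene there for 731 features (49.8%), a long noncoding RNA exon for 442 (30.1%), an unverified TEC exon for 130, an exon of a protein-coding gene for 83, a pseudogene for 42, an intron for 34 and a small RNA for 5. Counting exons and introns together, 329 features lie in a GENCODE gene of the antisense type. The features over a protein-coding exon had the higher values (median mean of 166 normalised reads) and those with no annotated gene the lower (52.5).

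Most antisense features were far below the gene across from them. Means over the 8 libraries ran up to 1987084 normalised reads, with quartiles of 24.7, 59.8 and 191. For the 1398 features whose gene also reached a mean of 10, the feature's value was a median 0.0276 of the gene's (interquartile range 0.00692 to 0.140). In 127 of them (9.08%) it exceeded the gene's. Per base of interval, where introns add to a gene's length and lower its value, the median ratio was 0.447 and 522 features (37.3%) stood above their gene. For the 112 features that lay wholly in exons of the opposite strand and whose gene has an exon length, the per-base level was a median 0.0896 of the gene's exons (interquartile range 0.0182 to 0.511), and in 59 it was below 0.1. The exons over a feature could be of any gene on that strand, not only of the paired one. GSMG0037428, for example, overlaps the row of Unc13a over 88 of its 1239 bases. The gene's value was spread over all its annotated exons, whether or not these libraries use them. The kit keeps reads of both strands, and most of these features had a lower level per base than the paired gene had by this measure. How the authors assigned reads to a strand was not stated in what was used here.

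**Figure D1:**
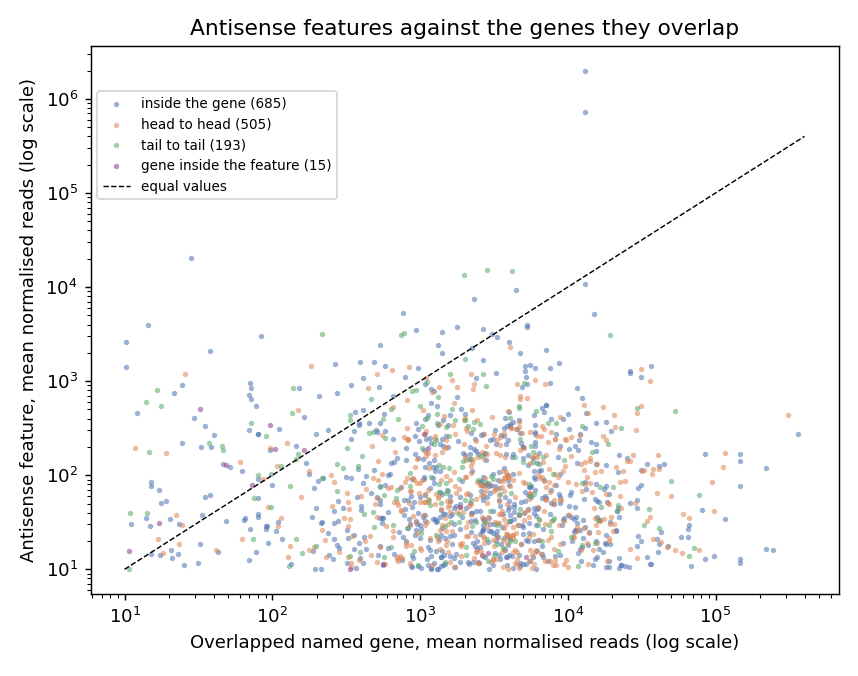
Mean normalised reads over the 8 libraries of each antisense feature (vertical, log scale) against the named gene it overlaps (horizontal, log scale), coloured by arrangement, for the 1398 pairs in which both means are at least 10. Most points lie below the dashed line of equal values, 127 lie above it, and the 2 highest points are the features opposite Lmbrd1.

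Most antisense reads belonged to 2 features. GSMG0043411 (chr1:24613188-24614814, minus strand, opposite Lmbrd1) had 1909320, 1762680, 1972110 and 2142930 normalised reads in WT 1 to 4 and 1961030, 1825950, 2160450 and 2162210 in Slm2KO 1 to 4. Its neighbour GSMG0043410 (chr1:24614879-24615568, minus strand) had 662150 to 786373 in WT and 669096 to 789889 in the libraries labelled Slm2KO. In both, the groups overlapped. Lmbrd1 itself had between 12120 and 13653 in all 8 libraries, so the feature values were 152 and 55.4 times those of the gene.

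The intervals of this pair cover the pseudogenes Gm28437 and Gm10925 and the pseudogene Gm28661. Over the aligned transcript these were identical to mt-Co3 (783 bases), mt-Atp6 (678 bases) and mt-Co2 (681 bases), with 0 mismatches, so reads of the nuclear and the mitochondrial copy cannot be told apart. No row of the mitochondrial chromosome in the deposited table overlaps those 3 mitochondrial genes on their own strand. Rows on the other strand were not looked for. The pair held 84.4% to 86.8% of all reads of antisense features. All antisense features took 2.52% to 3.04% of a library's sum over all rows, and 0.376% to 0.424% without the pair. The SD over 8 libraries was 0.0530 for its log2 ratio to the summed rows of the mitochondrial chromosome and 0.0858 for its log2 ratio to Lmbrd1, a single row, and the source of its reads was not tested. Its log2 difference between genotypes was 0.06 (SE 0.10) for GSMG0043411 and 0.04 (SE 0.08) for GSMG0043410. Relative to Lmbrd1 these were 0.05 and 0.04.

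Short pseudogene fragments gave other high ratios per base. GSMG0059917 (opposite Gadl1, 21 bases, over the pseudogene Gm9385) had 652 to 719 normalised reads in WT and 633 to 864 in the libraries labelled Slm2KO. GSMG0046338 (opposite Fpr2 and Fpr3, 31 bases, over Gm7535) had 62.1 to 75.9 and 71.1 to 91.5. Both are processed pseudogenes, near-copies of a parent gene, and their values are uncertain because reads could be split between the copies. Their log2 differences were 0.15 (SE 0.10) and 0.26 (SE 0.16), and relative to the gene 0.03 and -0.67. GSMG0032974, opposite Cntnap2 (a neurexin-family adhesion protein), is likewise a processed pseudogene, Rbpj-ps3, with 268 to 352 and 267 to 308.

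Several of the highest features were, in GENCODE, parts of a named gene on their own strand. GSMG0036054 encloses E030018B13Rik and covers the coding exons of Klf13, a zinc finger transcription factor. It had 26856, 27863, 28581 and 28954 normalised reads in WT 1 to 4 and 28382, 27734, 29449 and 27900 in Slm2KO 1 to 4. GSMG0010452, tail to tail with Gpld1, covers an exon of Mrs2, a mitochondrial magnesium channel. Its values ran from 14623 to 15142 in WT and from 14320 to 15372 in the libraries labelled Slm2KO, above the 6267 and 6470 group means of the row named Mrs2. Neither set of values separated the groups, with log2 differences of 0.02 (SE 0.05) and 0.01 (SE 0.05).

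GSMG0024231, inside Nudt6, lies wholly in an exon of Fgf2, the basic fibroblast growth factor gene, in GENCODE. It had 1438 to 1813 normalised reads in WT and 1323 to 2002 in the libraries labelled Slm2KO, while the row named Fgf2 had 118 ± 14.6 (SD, n = 4) and 118 ± 25.1 (SD, n = 4). GSMG0026201, inside Pigk, lies wholly in an exon of the sialyltransferase gene St6galnac5, with 8018 to 9452 in WT and 8091 to 10638. GSMG0004432, inside the meiotic gene Sycp3, overlaps the exons of the cholinephosphotransferase gene Chpt1 over 1435 of its 3671 bases, with 2789 to 2999 and 2635 to 3706. For Fgf2 and St6galnac5 exon sequence of the gene thus stands in the table as an antisense feature with no name. The groups overlapped in all 3.

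Others followed a named gene at a short distance, with no gene annotated under them. GSMG0040917, tail to tail with Megf11, begins 54 bases after the end of Rab11a, a recycling endosome GTPase. Its values were 13265, 13294, 12314 and 13364 normalised reads in WT 1 to 4 and 13776, 14016, 14966 and 13723 in Slm2KO 1 to 4. The groups did not overlap, and the log2 difference was 0.11 (SE 0.05, two-sided exact permutation p = 0.0286, the smallest that 4 against 4 allows, with an adjusted p of 1.00 by limma). GSMG0017933, inside Slc3a1, begins 189 bases after Prepl, a peptidase-like gene. It had 17964 to 20947 in WT and 17880 to 22626 in the libraries labelled Slm2KO, against 28.1 for Slc3a1 and 52606 for Prepl.

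Other features had values far above a gene across from them that was nearly silent. GSMG0015871, inside 4930547E14Rik, which is listed at 0, lies 7173 bases beyond Epha6 (an ephrin receptor) and had 18496 to 22545 in WT and 18370 to 25519 in the libraries labelled Slm2KO. GSMG0035673, inside Hipk4, lies 3634 bases beyond Pld3 and had 3804 to 4321 and 3430 to 4342. GSMG0023270 and GSMG0023269, inside Ccdc73, lie 1793 and 10555 bases beyond Eif3m, a translation initiation factor gene. The first had 2320 to 2620 and 2516 to 2844, and the second 1203 to 1384 and 1269 to 1740. In each of these the groups overlapped. A different case among the highest is GSMG0026237, tail to tail with Lrrc40 (mean 2817) and covered by the annotated antisense RNA B230334C09Rik. It had 13891 to 15242 in WT and 12449 to 18565 in the libraries labelled Slm2KO, with overlapping groups.

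In all, 106 features (7.23%) began within 1000 bases after a named gene on their own strand, 331 (22.6%) within 5000 and 457 (31.2%) within 10000. Among unnamed features that overlap no named gene those shares were 12.5%, 34.0% and 41.7%. The variation over the libraries was compared for features with a mean of at least 100. Within 1000 bases, the ratio to the upstream gene varied less than the ratio to the opposite gene for 45 of 60 features (75%), with median SDs of 0.143 and 0.204 on the log2 scale. Within 5000 bases this held for 115 of 163 (70.6%). More than 50000 bases away it held for 57 of 151 (37.7%), with median SDs of 0.244 and 0.204. Most features close behind a gene on their own strand, but not all, thus kept a steadier ratio to that gene than to the gene they oppose. The levels of the upstream and opposite genes, which affect the SD of a ratio, were not matched. The 2 ratios of a feature share its own value and its library.

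**Figure D2:**
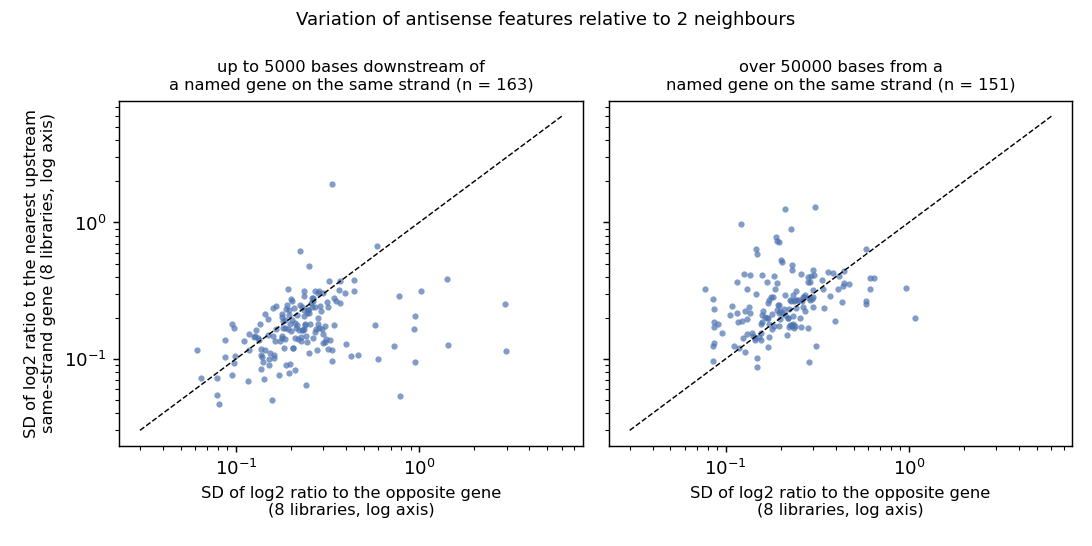
SD over the 8 libraries of each feature's log2 ratio to the nearest upstream gene on its own strand (vertical) against the SD of its log2 ratio to the opposite gene (horizontal), both on log axes, for features with a mean of at least 100. In the left panel 115 of 163 points lie below the dashed line of equal SD, and in the right panel 57 of 151.

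Where the end of a feature could be read, a poly(A) signal hexamer was more often on the strand of the feature than on the other strand. The hexamers searched were AATAAA and ATTAAA, in the last 50 bases, for the features whose end lay in a GENCODE transcript. The sequence was at hand for 756 features, and 439 (58.1%) held a hexamer on their own strand against 85 (11.2%) on the other strand of the same bases. Over long noncoding RNA exons the share was 248 of 392 (63.3%), and over TEC exons 76 of 119 (63.9%). Features with no gene on their own strand could be read only where the opposite gene's transcript covers them, and 60 of 162 (37.0%) held one on their own strand against 18 (11.1%) on the other. For named rows the shares were 74.3% and 13.0%, and over all features with a mean of at least 10 they were 70.1% and 12.6%. A hexamer is a description of these letters and no measure of its use.

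**Figure D3:**
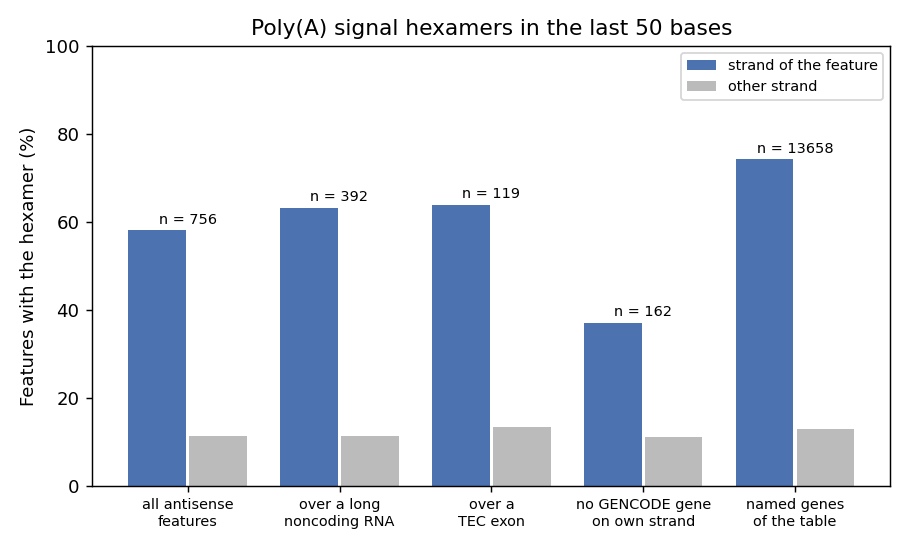
Percent of features with AATAAA or ATTAAA in the last 50 bases, on the strand of the feature (blue) and on the other strand of the same bases (grey), with the number of features read above each pair. The own-strand share runs from 37.0% to 74.3% and the other-strand share from 11.1% to 13.4%.

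Some antisense features start in an annotated promoter window. RefSeq promoter windows of 300 bases (250 before and 50 after the start, GRCm38.p6) of genes on the other strand held the 5′ end of 93 features, and 41 of these were head to head. Windows of genes on the feature's own strand also held the 5′ end of 93. The 99 other-strand windows hit had a median of 25 CG dinucleotides, against 7 in all 32851 windows. TATAAA, on either strand, stood in 4.04% of the windows hit and in 13.6% of all, and CCAAT in 35.4% and 37.4%. The set of all windows was not limited to genes with reads in these libraries. The own-strand windows were not counted in this way, so these values are not shown to be particular to antisense starts. GSMG0016391, head to head with the ubiquitin ligase gene Stub1, lies in an intron of Gm26694. It overlaps the row of Stub1 over 250 bases, so it starts further inside that row than such a window reaches. It had 656 to 744 normalised reads in WT and 622 to 659 in the libraries labelled Slm2KO.

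Ube3a was covered by the most features. The 9 lie on the minus strand, opposite Ube3a, and 7 of them overlap exons that GENCODE calls TEC. Their summed value was 3978, 4394, 3501 and 4097 normalised reads in WT 1 to 4 and 3246, 3893, 4029 and 4162 in Slm2KO 1 to 4, against a mean of 5973 for Ube3a. The groups overlapped, with means of 3992 ± 371 (SD, n = 4) and 3833 ± 406 (SD, n = 4). These sums leave out named rows, so they are not the whole level of that strand over Ube3a. The named row A230073K19Rik, on the same strand, ends over Ube3a, 690 bases before GSMG0036007. Its group means were 2738 in WT and 2685 in the libraries labelled Slm2KO. The highest single feature was GSMG0036004 (chr7:59246179-59254788), with 1125 to 1552 in WT and 1159 to 1533. The 9 log2 differences ran from -0.27 to 0.18, and none had an unadjusted p under 0.05 by limma.

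**Figure D4:**
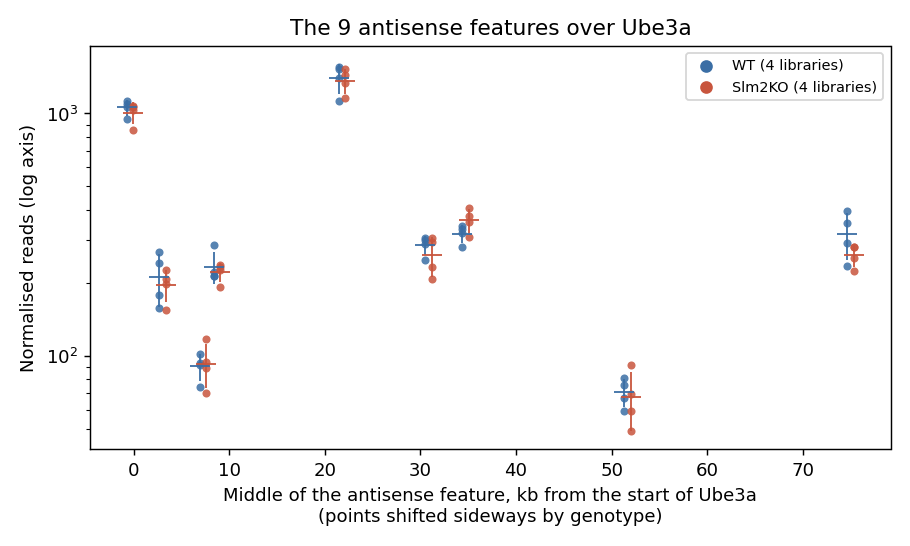
Normalised reads (log axis) of the 9 antisense features over Ube3a in each library, by the distance of the feature's middle from the start of Ube3a in kb. Points are libraries (WT blue, Slm2KO red, shifted sideways), dashes are group means and bars are SD (n = 4), and the groups overlap at every feature.

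Bace1 had 2 antisense features. GSMG0043564 (chr9:45856770-45860682) lies over Bace1 coding exons, with Gm49338 on its own strand and its last bases in an exon of Gm16536. It had 3804, 3802, 3457 and 3307 normalised reads in WT 1 to 4 and 3611, 4072, 3884 and 3920 in Slm2KO 1 to 4. That is above Bace1 itself, at 1823 ± 130 in WT and 1749 ± 116 in the libraries labelled Slm2KO (SD, n = 4 each). GSMG0040692 (chr9:45861427-45862355, 58 bases beyond Rnf214) had 644, 623, 618 and 620 in WT and 705, 719, 724 and 729 in the libraries labelled Slm2KO. Its groups did not overlap, and its log2 difference was 0.20 (SE 0.07, exact permutation p = 0.0286), with an adjusted p of 1.00 by limma. The log2 difference of GSMG0043564 was 0.11 (SE 0.07).

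Another imprinted neighbourhood was that of Mest, a gene expressed from the paternal copy. GSMG0031631, inside Copg2 and 56801 bases beyond Mest on the same strand, had 11519, 10750, 10160 and 9197 normalised reads in WT 1 to 4 and 10234, 8746, 11003 and 14256 in Slm2KO 1 to 4. The row named Mest had group means of 2223 and 2019, and Copg2 a mean of 13003. Slm2KO 4 was the highest for the feature and the groups overlapped.

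Antisense features stood opposite some synaptic and channel genes. Of 35 adhesion and organizer genes 2 had a feature, of 30 glutamate receptor genes 3, of 19 postsynaptic scaffold genes 2, of 30 presynaptic release genes 5 and of 30 ion channel genes 5, together 17 of 144 (11.8%). That share leaves out the lists without a feature, given below. Over the whole table, silent rows included, 1319 of 24338 named rows (5.42%) were paired with a feature. The 2 shares were not matched for level or gene length, so no enrichment is read from them. None of the 5 listed SLM2 splicing targets (the neurexins among them), the 5 STAR family genes or the 14 GABA receptor genes had one. No feature on these lists passed adjusted p under 0.05 by limma (background 0.0039% of 25667 features), and 1 of the 17 had an unadjusted p under 0.05, where 3.52% of all features did.

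For glutamate receptors, GSMG0034487 (Grin2d, over the antisense RNA Gm45441) had 655 to 863 normalised reads in WT and 567 to 928 in the libraries labelled Slm2KO. GSMG0033511 (Grm7, over Gm20387) had 391 to 459 and 392 to 517, and GSMG0032582 (Grin2b, over Gm26653) had 111 to 145 and 92.2 to 160. Among scaffolds and kinases, GSMG0014382 (Shank3, over Gm15609) had 57.1 to 88.1 and 73.0 to 92.6. GSMG0004861, in a Camk2b intron, had 51.5 to 335 in WT and 57.9 to 208. The groups overlapped in all of these, with log2 differences of 0.01 for Grin2d, 0.02 for Grm7, 0.09 for Shank3 and -0.26 for Camk2b.

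For release and channel genes, GSMG0037428 (Unc13a, a vesicle priming factor) had 218 to 249 in WT and 225 to 268, and GSMG0012152 (Erc2, an active zone protein) had 52.6 to 65.1 and 49.0 to 60.3. GSMG0021147 (the sodium channel gene Scn1a) had 162 to 234 and 167 to 254. The member with the unadjusted p was GSMG0011312, in an intron of the BK potassium channel gene Kcnma1 and over 4930519K11Rik, with 23.0, 33.4, 28.3 and 44.0 in WT 1 to 4 and 19.4, 21.0, 18.7 and 22.6 in Slm2KO 1 to 4. Its groups did not overlap, and its log2 difference was -0.60 (SE 0.25, exact permutation p = 0.0286) with an adjusted p of 1.00 by limma. The other differences were 0.06, -0.05 and 0.02. GSMG0033221 (Lrrtm4, a postsynaptic neurexin ligand) stood near the threshold, with 7.01 to 14.2 and 6.31 to 15.5.

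Lists of regulators and glial genes gave a similar picture. GSMG0001223 overlaps Prox1os, opposite Prox1, the homeobox gene of dentate granule cells, with 774 to 1074 normalised reads in WT and 716 to 1011 in the libraries labelled Slm2KO. GSMG0023281, opposite the homeobox gene Pax6, had 142 to 165 and 130 to 178. GSMG0010344, opposite Inhba, had 1126 to 1304 and 1068 to 1229, above Inhba itself at a mean of 515. Among splicing regulators, GSMG0012867 (Mbnl2) had 189 to 311 and 194 to 249, and GSMG0039233 (Elavl3) had 3.04 to 18.1 and 10.5 to 15.7. Opposite Aqp4, the astrocyte water channel, GSMG0018094 had 84.1 to 107 and 79.7 to 123, and opposite Mog, a myelin protein, GSMG0016634 had 140 to 193 and 128 to 163. All overlapped between groups, and their log2 differences were -0.10 for Prox1, -0.07 for Pax6, -0.03 for Inhba, -0.05 for Mbnl2, 0.52 for Elavl3, 0.00 for Aqp4 and -0.06 for Mog. The Elavl3 value rested on 1 library, since without WT 3 it was 0.077 and without WT 2 it was 0.82.

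No antisense feature differed in level between the genotypes after adjustment. By limma on log2(value + 1) with Benjamini-Hochberg adjustment over all 25667 features, 0 of 1467 passed 0.05 (background 0.0039%), and the smallest adjusted p was 1.00. An unadjusted p under 0.05 was seen for 72 (4.91%, background 3.52%). Of these 43 were higher in the libraries labelled Slm2KO (2.93%, background 1.7%) and 29 lower (1.98%, background 1.82%). The groups did not overlap for 55 (3.75%, background 2.5%). The median log2 difference was 0.00 for the antisense features and -0.01 for all features. edgeR called 0 (background 0.0039%), with 79 at an unadjusted p under 0.05, and DESeq2 called 0 (background 0.0351%), with 65. For edgeR and DESeq2 the share of all features with an unadjusted p under 0.05 was not counted, so nothing is read from 79 and 65.

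The ratio of feature to opposite gene gave the same count. By limma, 0 of 1398 ratios passed an adjusted p of 0.05 (background 0.0185% of 5400 pairs of an unnamed and a named row), and 60 had an unadjusted p under 0.05 (4.29%, background 2.8%). Of these 34 were higher in the libraries labelled Slm2KO (2.43%, background 1.59%) and 26 lower (1.86%, background 1.2%). The groups did not overlap for 38 (2.72%, background 1.81%). The 95% interval of the level difference excluded a change of 2-fold or more for 1096 features (74.7%), against 85.2% of all features, and the median SE was 0.230 against 0.126. By arrangement, an unadjusted p under 0.05 was seen for 5 higher (0.963%) and 16 lower (3.08%) of 519 head-to-head features, for 28 (3.95%) and 12 (1.69%) of 709 inside a gene, for 9 (4.27%) and 1 (0.474%) of 211 tail to tail and for 1 (3.57%) and 0 of 28 that enclose the gene. Over all features the shares were 1.7% higher and 1.82% lower, and a difference between arrangements was not tested.

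The feature with the smallest p was GSMG0035022 (chr7:110058170-110060814, plus strand), inside AA474408 and 1559 bases beyond Ipo7, a nuclear import receptor gene. It had 250, 248, 258 and 254 normalised reads in WT 1 to 4 and 360, 320, 392 and 331 in Slm2KO 1 to 4, and the groups did not overlap. Its log2 difference was 0.47 (SE 0.10, limma adjusted p = 1.00, exact permutation p = 0.0286), and relative to AA474408 it was 0.58. Over the alternatives its adjusted p in level ran from 0.0764, by DESeq2, to 1.00. Ipo7 had a log2 difference of 0.04.

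Features opposite Jak1, the cytokine receptor kinase, were also among those with the smallest p. GSMG0026795 (chr4:101157338-101161431, plus strand) had 1100, 1225, 948 and 927 normalised reads in WT 1 to 4 and 1218, 1664, 1435 and 1635 in Slm2KO 1 to 4. Slm2KO 1 lay within the WT range and the other 3 above it. Its log2 difference was 0.50 (SE 0.12, limma adjusted p = 1.00, exact permutation p = 0.0571), and 0.54 relative to Jak1, whose own difference was -0.03. Its adjusted p in level ran from 0.133, by DESeq2, to 1.00. The adjacent GSMG0026794, which begins 1014 bases beyond Raver2, had 0.43 (SE 0.13), and Raver2, a splicing-related RNA-binding protein gene, had 0.05. Adjacent features can be parts of 1 transcript and are not independent.

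Of the other features with the smallest p in level, GSMG0003180 (head to head with Pcnt, the centrosomal pericentrin) had 46.1, 50.6, 41.5 and 52.6 in WT and 19.4, 24.2, 20.7 and 32.3 in the libraries labelled Slm2KO, a log2 difference of -0.97 (SE 0.23) and of -0.95 relative to Pcnt. GSMG0020761 (in an intron of Mastl, a mitotic kinase) had 5.42 to 10.01 and 14.8 to 22.8, a difference of 1.23 (SE 0.31). Its group means were 7.29 in WT and 18.2 in the libraries labelled Slm2KO. It thus reached the mean of 10 only through the group where it is high, and its separation can be partly a product of that filter. GSMG0018696 (head to head with Wac) had 121 to 152 and 81.9 to 101, a difference of -0.53 (SE 0.14) and of -0.56 relative to Wac. In these 3 the groups did not overlap.

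GSMG0006450 (inside Smek2, a phosphatase subunit gene) had 161 to 216 in WT and 233 to 304 in the libraries labelled Slm2KO, a log2 difference of 0.49 (SE 0.13). GSMG0026817, inside Gm12709 (listed at 0) and 3188 bases beyond Sgip1, had 1597 to 1801 and 1899 to 2264, a difference of 0.25 (SE 0.07), and Sgip1 had -0.03. Both sets of groups were apart. GSMG0032945, in the T cell receptor β locus, had 31.0 to 66.9 and 10.5 to 38.8, a difference of -1.40 (SE 0.40) with overlapping groups. All of these had an adjusted p of 1.00 by limma. In the ratio fit, GSMG0004432 relative to Sycp3 had -0.53, where the feature had 0.11 and Sycp3 0.64.

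**Figure D5:**
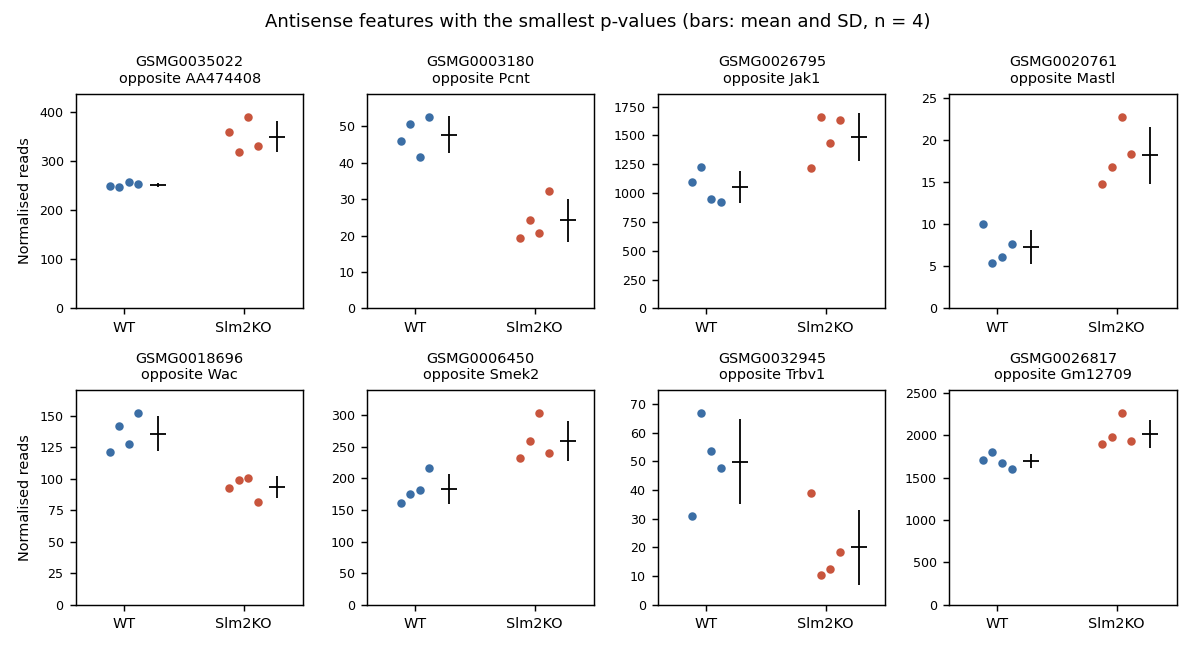
Normalised reads in each library for the 8 antisense features with the smallest p in level, WT blue and Slm2KO red, with the mean and SD (n = 4) in black. Vertical axes start at 0, and the groups overlap for GSMG0026795 (Jak1) and GSMG0032945 (the T cell receptor locus).

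GSMG0022600, the feature that holds Mir219a-2, had 2075, 2555, 2042 and 2278 normalised reads in WT 1 to 4 and 1859, 2034, 1902 and 1895 in Slm2KO 1 to 4. The groups did not overlap, narrowly, and the log2 difference was -0.21 (SE 0.08, limma adjusted p = 1.00, exact permutation p = 0.0286). The libraries did not select mature microRNAs, so this is a level of the longer transcript around the hairpin. GSMG0002666, over the miR-29 pair and an exon of the complement regulator gene Cd46, had 254 to 367 in WT and 256 to 388. It was named after its values were seen, as were GSMG0022600, GSMG0026794, GSMG0031631, GSMG0024231, GSMG0026201, GSMG0016391, GSMG0032582, the other features opposite Ube3a than GSMG0036004, the feature just inside the threshold and those singled out for their range over libraries.

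Antisense features varied more between libraries than the genes across from them, but they were also far lower, at a median 0.0276 of the gene's value. Low counts vary more on the log scale, and the levels of features and genes were not matched, also not in the subset with higher means. The median SD of log2 values over the 8 libraries was 0.302 for the features, 0.114 for their genes and 0.335 for the ratio. For 512 pairs with a feature mean of at least 100 these were 0.181, 0.115 and 0.222, and the ratio varied less than the feature itself for 151 (29.5%). Of the 541 features with a mean of at least 100, 47 ranged more than 2-fold over the libraries and 13 more than 4-fold.

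The features that ranged most, other than GSMG0043229 (given below), did so within both groups. Of the 13, 11 had reads in all libraries. In 10 of these 11 the lowest value was in WT 2 or Slm2KO 2, and in 10 the highest was in Slm2KO 4 or WT 3, where 21.8% and 26.6% of all features with a mean of at least 100 had theirs. Ttr, the choroid plexus transthyretin gene, was lowest in WT 2 (219052) and highest in Slm2KO 4 (2262370). The lowest library was WT 2 for 6 of the features and Slm2KO 2 for 4, so not all had the order of Ttr. GSMG0016478 (opposite Gm10503) had 1103 normalised reads in WT 2, 387 in WT 4 and 320 in Slm2KO 2. GSMG0030017 (opposite 9530056K15Rik) had 451, 168 and 117. The next 2 features were lowest in WT 2, like Ttr. GSMG0014401, in an intron of the adhesion gene Cntn1, had 1804, 461, 2399 and 1116 normalised reads in WT 1 to 4 and 1007, 643, 1028 and 3276 in Slm2KO 1 to 4. GSMG0032699, in an intron of Ppp1r9a and over Gm44250, had 4055, 1009, 4397 and 2326 and 2420, 1084, 2356 and 5908. The part of choroid plexus tissue in these values was not tested.

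The remaining pair was present in some libraries only. GSMG0043229, inside Ermard, had 1739 normalised reads in Slm2KO 4 and 0 in the other 7 libraries. GSMG0043047, inside the Y-linked gene Uty, had 506 in WT 4, 480 in Slm2KO 3 and 640 in Slm2KO 4 and 0 in the rest, and Uty had reads in the same 3 libraries and 0 in the others. The labels give no sex, and by this measure 1 of 4 WT and 2 of 4 Slm2KO libraries held Y-linked reads. The part of sex in the other results was not tested.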

How the data were processed

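Per the labels, hippocampal RNA of 4 WT and 4 Slm2KO samples was extracted with Trizol and made into Illumina TruSeq libraries. The authors deposited 1 signal value per feature and library, a normalised read count; the submitters' processing notes name FastQC, Picard, SAMtools and DESeq. They also list the human build hg19, but per the file headers the coordinates are mm10 and the features a GenoSplice set, and mm10 is used here. For the aligner and the counting program no source used here gives a name. In each library 100% of values were whole multiples of 1 step within 0.001 of a read, which gave depth (size factors 0.928 to 1.11). Of the recovered values from 1 to 20, 29.1% to 33.0% were odd, so a recovered read need not be an independent count. No test was corrected for this. Of 22572 Ensembl identifiers found in GENCODE vM21, 22549 lay at the listed place.

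Levels were tested with limma 3.58.1 (R 4.3.3) on log2(value + 1), with a trended prior, over 25667 features with a mean of at least 10, with Benjamini-Hochberg adjustment over all. The added 1 understates changes of low features. Ratios were log2(feature + 1) minus log2(gene + 1) over 5400 pairs, pairing a feature with the gene of longest overlap. Exact permutation tests were two-sided over 70 assignments. edgeR 4.0.16 and DESeq2 1.42.0 ran on the recovered reads. The scripts were tested on simulated data.

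Features were named by rule: the 8 smallest p in level and 5 in ratio, the 8 highest means, the 6 highest ratios of each kind and up to 2 per gene list. The members and lists were chosen with earlier results of these data known. Alternatives were pseudocounts, filters, TMM, no trend, a replicate block, the series of sample numbers, overlap rules and leaving out each library.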

Additional observations from a re-analysis of the deposited data

Results flagged for a closer look

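In 9 of 134 groups of 4 libraries (67 named features in each genotype), the highest or lowest library stood apart from the other 3 by more than 0.829 of the group's range. Chance flags about 1 group in 20. Choroid plexus tissue and sex, which differ between libraries, were not tested as causes.

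In WT, GSMG0012709 (opposite Vwa8) was highest in WT 3 at 17.2 normalised reads, GSMG0026237 (Lrrc40) in WT 2 at 15242, GSMG0036003 (Ube3a) in WT 2 at 286 and GSMG0043047 (Uty) in WT 4 at 506. GSMG0040917 (Megf11) was lowest in WT 3 at 12314. In the libraries labelled Slm2KO, GSMG0014401 (Cntn1) was highest in Slm2KO 4 at 3276 and GSMG0043229 (Ermard) in Slm2KO 4 at 1739. GSMG0012867 (Mbnl2) was lowest in Slm2KO 4 at 194 and GSMG0016634 (Mog) in Slm2KO 1 at 128.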

How the results depend on the processing

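No antisense feature passed an adjusted p of 0.05 in level, by limma under its alternatives or by edgeR or DESeq2. None passed in ratio, which was fitted by limma only. The number with an unadjusted p under 0.05 was 72 in level and 60 in ratio. It fell to 44 of 805 and 35 of 732 when only features with a mean of at least 50 were tested, which removes features, and was 105 in level without the trended prior. Leaving out each library in turn gave 54 to 88 in level and 47 to 77 in ratio. The replicate numbers of the 2 groups do not pair the libraries (correlations of same-numbered deviations 0.12, 0.32, -0.065 and -0.12). With the replicate block the numbers were 59 in level and 45 in ratio, with 0 adjusted calls. The share over all features or pairs was not counted under these alternatives. The numbers are therefore not read as a result about antisense features. 

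Of 60 single differences, 20 changed sign under at least 1 alternative, and each of the 20 was smaller than its own SE. Leaving out 1 library, the log2 level difference ran from -0.20 to 0.011 for GSMG0001223, -0.80 to 0.13 for GSMG0004861, -0.062 to 0.0087 for GSMG0010344, -0.095 to 0.0204 for GSMG0012152, -0.16 to 0.075 for GSMG0012867, -0.034 to 0.17 for GSMG0014382, -0.13 to 0.027 for GSMG0016634, -0.12 to 0.088 for GSMG0018094, -0.10 to 0.11 for GSMG0021147, -0.084 to 0.048 for GSMG0032974, -0.29 to 0.10 for GSMG0033221, -0.059 to 0.074 for GSMG0033511, -0.075 to 0.16 for GSMG0034487, -0.13 to 0.044 for GSMG0036004 and -0.0053 to 0.031 for GSMG0036054. The ratio ran from -0.59 to 0.28 for GSMG0017933, -0.29 to 0.26 for GSMG0023269, -0.42 to 0.15 for GSMG0023270, -0.0055 to 0.069 for GSMG0043410 and -0.047 to 0.19 for GSMG0059917. With TMM factors GSMG0018094 had -0.0086, and with a pseudocount of 10 the ratio of GSMG0023269 had 0.091. The cause of these changes was not tested. The other 40 kept their direction under all alternatives run.

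The SE of low features limits what can be seen. Identical sequences, unstated strand assignment and the range of choroid plexus markers between libraries limit single values.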
